A study of Mus musculus with 2 samples.

Results

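The T cell receptor alpha segments are the variable (Trav) and joining (Traj) gene segments from which a T cell builds the alpha chain of its receptor. They were taken as every row whose symbol begins with Trav or Traj, which gave 188 of 32285 rows in the deposited tables: 128 Trav rows and 60 Traj rows. Their counts were read in 2 libraries of mouse splenocytes made with the 10x 5′ chemistry, each from wild-type C57BL/6 recipients. ALLO recipients had skin grafts at weeks 0 and 5, with C57BL/6-Tg(HLAA2.1)1Enge/J animals as donors, which carry a human HLA-A2.1 transgene, and SYN recipients had wild-type C57BL/6 donor skin, with spleens taken 4 weeks after the second graft. The sources used here give no number, age or sex of animals for a library, and there is 1 library per group, so every difference between ALLO and SYN is a difference between these libraries and was not tested. The series' title names the Th17 pathway and anti-HLA antibodies as its subject, and the alpha segments were a part of the same measurement.

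In a developing T cell, the recombinase joins 1 Trav segment to 1 Traj segment, and the joined exon is spliced to the constant gene Trac. The Trav segments lie far from Trac and the Traj segments close to it, and rearrangement can be repeated on a chromosome, moving outward in both arrays. Both chromosomes can rearrange, so that a mature cell may carry a pair of alpha chains, which is less common for the beta chain. In C57BL/6 mice a large stretch of the Trav array has been copied, and the copies carry the letters d and n in their names (Trav14d-3-dv8 and Trav14n-3 beside Trav14-3). Trav segments with dv in the name can also be used in the delta chain of gamma delta T cells.

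All 188 rows matched the GENCODE M21 annotation (GRCm38, the assembly called mm10) by identifier and by symbol. All lie on the plus strand of chromosome 14, the Trav rows from 52427928 to 53977678 and the Traj rows from 54155005 to 54218842. The sequences that carry the main observations are given here from GENCODE M21 as coding sequence, with introns removed, in stretches of up to 300 bases. The first set holds bases 15 to 314 of the 3 copies of Trav14-3, which took very different shares of the UMIs in the libraries; capitals mark 15 of the 16 positions at which the 3 are not alike, the other lying outside the stretch. Trav14d-3-dv8 lies at chr14:53078452-53079045, Trav14n-3 at chr14:53370077-53370575 and Trav14-3 at chr14:53763173-53763694.
Trav14d-3-dv8: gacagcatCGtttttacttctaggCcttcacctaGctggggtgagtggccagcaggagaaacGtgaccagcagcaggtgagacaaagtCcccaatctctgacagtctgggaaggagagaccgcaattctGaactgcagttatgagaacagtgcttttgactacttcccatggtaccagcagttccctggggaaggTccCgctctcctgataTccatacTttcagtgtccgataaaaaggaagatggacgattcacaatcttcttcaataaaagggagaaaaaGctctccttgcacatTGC
Trav14n-3: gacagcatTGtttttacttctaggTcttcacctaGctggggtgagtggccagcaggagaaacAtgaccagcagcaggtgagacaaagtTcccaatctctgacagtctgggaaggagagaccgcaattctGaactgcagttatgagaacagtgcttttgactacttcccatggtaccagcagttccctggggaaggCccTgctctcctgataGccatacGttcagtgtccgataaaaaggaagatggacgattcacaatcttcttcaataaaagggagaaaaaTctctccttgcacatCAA
Trav14-3: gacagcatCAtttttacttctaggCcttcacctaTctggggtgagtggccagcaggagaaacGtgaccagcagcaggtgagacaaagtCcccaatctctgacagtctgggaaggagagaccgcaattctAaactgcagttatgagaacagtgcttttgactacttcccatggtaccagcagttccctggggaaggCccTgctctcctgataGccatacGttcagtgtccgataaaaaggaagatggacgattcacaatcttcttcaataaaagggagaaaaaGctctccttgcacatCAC

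Trav14d-3-dv8 differed from Trav14n-3 at 12 of 361 bases and from Trav14-3 at 10, so that reads could be told apart where they cover one of these positions. The second set is a pair on either side of a change between the libraries: Trav10n, at chr14:53122114-53122610, was read in ALLO alone, and Trav10d, at chr14:52810934-52811496, was read in both. Bases 1 to 300 are shown, and capitals mark the 3 of 343 bases that differ.
Trav10n: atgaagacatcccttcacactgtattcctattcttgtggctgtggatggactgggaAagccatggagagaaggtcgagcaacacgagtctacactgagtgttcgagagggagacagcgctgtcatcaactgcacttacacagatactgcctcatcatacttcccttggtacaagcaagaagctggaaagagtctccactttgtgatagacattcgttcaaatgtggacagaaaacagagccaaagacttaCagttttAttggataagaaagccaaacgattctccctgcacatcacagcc
Trav10d: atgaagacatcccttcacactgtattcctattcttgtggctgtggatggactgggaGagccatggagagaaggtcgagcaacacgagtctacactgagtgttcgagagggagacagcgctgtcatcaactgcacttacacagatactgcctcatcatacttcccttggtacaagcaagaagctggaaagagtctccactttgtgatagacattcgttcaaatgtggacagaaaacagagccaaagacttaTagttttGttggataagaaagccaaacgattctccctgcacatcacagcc

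The last set holds the segments joined in the invariant receptor of natural killer T cells. Trav11, at chr14:53519303-53519859, is alike at all 342 compared bases with its copy Trav11d, at chr14:52824357-52824912, and bases 1 to 300 are shown. Traj18 lies at chr14:54200777-54200842.
Trav11: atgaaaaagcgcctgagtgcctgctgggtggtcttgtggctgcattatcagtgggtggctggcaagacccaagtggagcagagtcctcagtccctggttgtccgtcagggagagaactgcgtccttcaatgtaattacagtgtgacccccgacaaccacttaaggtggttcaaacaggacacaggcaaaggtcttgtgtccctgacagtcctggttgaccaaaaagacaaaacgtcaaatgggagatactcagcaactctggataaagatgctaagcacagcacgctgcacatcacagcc
Traj18: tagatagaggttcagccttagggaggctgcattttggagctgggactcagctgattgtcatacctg

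ALLO held 11185 barcodes with 39476214 UMIs, and SYN held 17777 barcodes with 45435231 UMIs. Barcodes with at least 1000 UMIs were used, 9926 in ALLO and 11267 in SYN. T cells were gated by their UMIs: at least 1 UMI over Cd3d, Cd3e and Cd3g and none of Cd79a, with Cd4 and no Cd8a or Cd8b1 for CD4 T cells, with Cd8b1 and no Cd4 for CD8 T cells, and with Foxp3 and no Cd8a or Cd8b1 for Foxp3 T cells. This gave 559 CD8 T cells, 94 Foxp3 T cells and 574 CD4 T cells in ALLO, and 555, 105 and 872 in SYN. Of the Foxp3 T cells, 45 in ALLO and 49 in SYN were also CD4 T cells. Markers of other cells were found in the gates and were not equal between libraries. In CD8 T cells, 6 natural killer cell genes summed to 420 CPM in ALLO and 207 CPM in SYN, and 4 neutrophil genes to 5.90 and 132 CPM. In CD4 T cells the natural killer list summed to 135 and 31.2 CPM and the neutrophil list to 5.77 and 105 CPM. Of the natural killer list, 6 of 6 genes had UMIs in ALLO CD4 T cells and 5 of 6 in SYN, where Ncr1 was at 0; of the neutrophil list, 3 of 4 had UMIs in ALLO, where Camp was at 0, and 4 of 4 in SYN. Red cell genes summed to 0.694 CPM in ALLO and 206 CPM in SYN CD8 T cells, and to 47.7 and 2.48 CPM in CD4 T cells. The 8 B cell genes summed to 251 and 320 CPM in CD8 T cells and to 275 and 259 CPM in CD4 T cells, with Cd79a at 0 by the gate. The part of these cells in the differences below was not tested. The libraries shared 264 barcodes, of which 4 were gated T cells in both.

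Trav transcripts marked the T cell gates. In CD8 T cells the summed Trav level was 453 CPM (counts per 1000000 UMIs of the class) in ALLO and 518 CPM in SYN. In Foxp3 T cells it was 556 and 599 CPM, and in CD4 T cells it was 609 and 698 CPM, in ALLO and SYN in that order. In the B cell gate (Cd79a with no Cd3 UMI) it was 1.39 CPM in ALLO and 6.07 CPM in SYN. Among CD4 T cells, 73.2% (95% exact interval 69.3 to 76.8) had a Trav UMI in ALLO and 73.9% (70.8 to 76.7) in SYN. Among CD8 T cells the shares were 66.7% (62.7 to 70.6) and 71.7% (67.8 to 75.4). In B cells, which should lack these transcripts, 0.468% had a Trav UMI in ALLO and 1.79% in SYN, at median depths of 3165 and 2995 UMIs against 4190 and 4066 UMIs in CD4 T cells. With each cell thinned to 1000 UMIs, the shares were 32.0% and 37.7% in CD8 T cells, 40.4% and 44.5% in CD4 T cells, and 0.213% and 1.15% in B cells. All intervals here cover counting error only.

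Trac, the alpha constant gene, had 183 CPM in ALLO and 217 CPM in SYN CD8 T cells, and 293 and 271 CPM in CD4 T cells. The joined Trav exon is at the 5′ end that this chemistry reads, and Trav UMIs outnumbered Trac UMIs in each of the 3 T cell classes in both libraries. The other side of the join was hardly read. Traj rows had 30 UMIs in ALLO and 36 in SYN, against 5120 and 8115 for Trav rows. Of the 60 Traj rows, 36 were at 0, and 1 (Traj18) reached 20 UMIs. Annotated Traj segments are between 29 and 72 bases long, with a median of 61.

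The recombination genes were at or near 0 in these cells. Rag1 and Rag2, which cut the receptor genes, had no UMI in the CD4, CD8 or Foxp3 T cells of either library. Dntt, which adds bases at the join, had a UMI in 5 of 559 CD8 T cells in ALLO and 2 of 555 in SYN, and in 5 of 574 and 12 of 872 CD4 T cells.

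Reading of the copied segments followed how much sequence was their own. Each annotated transcript was divided into all windows of 50 bases, and a window was called unique if no other GENCODE transcript held it. Of 108 Trav rows annotated as genes, 36 had no unique window, and these 36 held 11 UMIs in all. They included all 30 Trav genes at 0. The 72 genes with at least some unique window all had UMIs. Over all 108 genes, the share of unique windows had a median of 60.8% for Trav genes with no copy letter, 0.174% for d names and 0% for n names. The 46 genes with no copy letter held 10570 UMIs, the 34 d genes 1199 and the 28 n genes 1307. Of the 20 Trav pseudogenes, 13 were at 0, and Trav8-2 held 124 of their 159 UMIs. A segment at 0 with no unique window is therefore not shown to be unused.

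**Figure D1:**
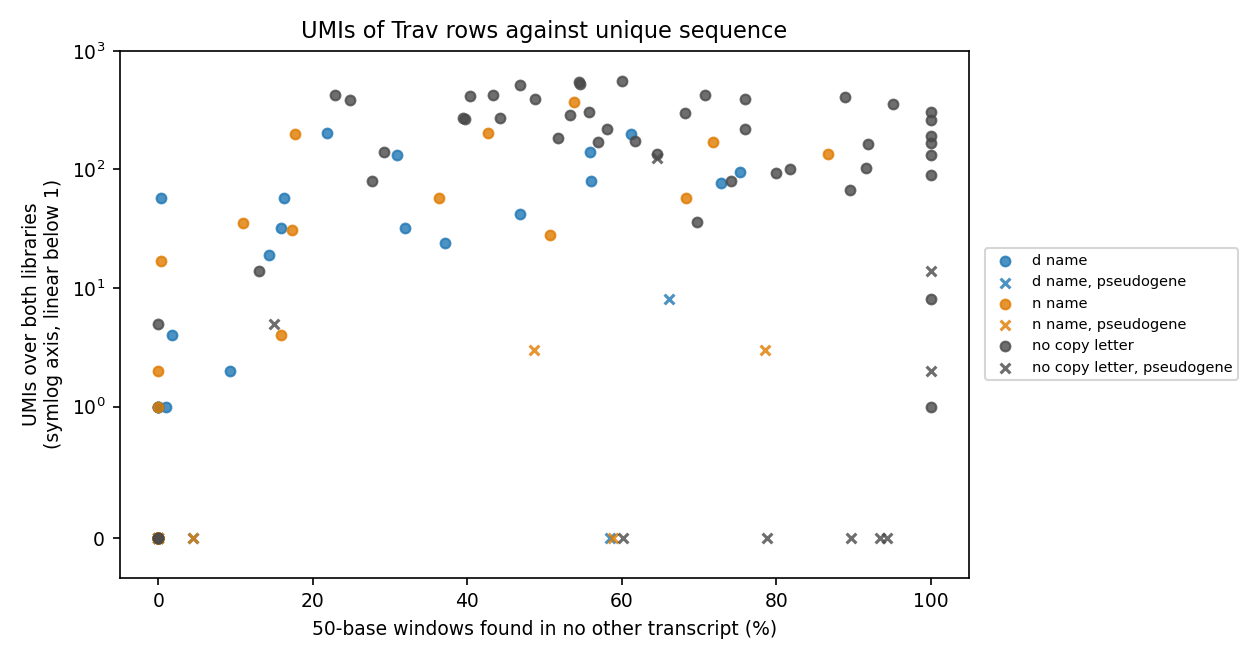
UMIs over both libraries (symlog axis) of the 128 Trav rows against the share of their 50-base windows found in no other transcript, coloured by copy letter, with pseudogenes as crosses. The Trav genes at 0 UMIs all sit at 0% on the horizontal axis; the other rows at 0 UMIs are pseudogenes.

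Families with 2 or 3 names were read mostly under the name without a letter. Trav3-3 had 121 UMIs in ALLO and 209 in SYN gated T cells, while Trav3d-3 had 0 and 1 and Trav3n-3 none. Trav4-4-dv10, Trav14-2 and Trav12-2 likewise held every UMI of their families, and none of their d and n copies had a unique window. Trav14-3 was the family with the most UMIs among those in which all 3 names had UMIs and unique windows (43.3% for Trav14-3, 61.2% for Trav14d-3-dv8 and 53.8% for Trav14n-3). Trav7-4, Trav16, Trav10, Trav8-2 and Trav13-4 also had unique windows under all 3 names. Its UMIs in ALLO gated T cells were 114 for Trav14d-3-dv8, 50 for Trav14n-3 and 83 for Trav14-3; in SYN they were 1, 188 and 142. The d name led the family in ALLO and was nearly empty in SYN.

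A run of neighbouring segments was read in the ALLO library and almost not at all in SYN. In their order along chromosome 14, the rows at places 43 to 52 of 128 are Trav8d-2, Trav16d-dv11, Trav13d-4, Trav14d-3-dv8, the pseudogene Trav15d-3, Trav7n-4, the pseudogene Trav9n-1, Trav6n-5, Trav10n and Trav6n-6. They span 53042428 to 53133137, which is 90710 bases, and all 10 have unique windows. Over all deposited barcodes they held 490 of 5185 Trav UMIs in ALLO (9.45%) and 2 of 8933 in SYN (0.0224%). These rows were picked after their values were seen.

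Within the run, Trav14d-3-dv8 had 199 UMIs in ALLO and 1 in SYN. Trav8d-2 had 77 and 0, Trav10n had 57 and 0, and Trav6n-6 had 57 and 0. Trav13d-4 had 41 in ALLO and 1 in SYN. Trav7n-4 had 28 and 0, and Trav16d-dv11 had 24 and 0. Against a floor of 3 UMIs in SYN, the share of Trav UMIs was at least 44.2-fold higher in ALLO for Trav8d-2 and at least 32.7-fold higher for Trav10n and for Trav6n-6. These folds take UMIs as independent, though a gated T cell held up to 9 UMIs of Trav8d-2, 17 of Trav10n and 5 of Trav6n-6. Trav6n-5 (4 and 0 UMIs) and Trav9n-1 (3 and 0) were near the floor, and Trav15d-3 was at 0 in both libraries.

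The run was seen in every T cell class. Among CD8 T cells, 60 of 559 in ALLO and 1 of 555 in SYN had a UMI of a run segment, and these were 9.26% and 0.0693% of the Trav UMIs. Among Foxp3 T cells the numbers were 6 of 94 in ALLO and 0 of 105 in SYN. Among CD4 T cells they were 62 of 574 (9.85% of Trav UMIs) and 0 of 872, which by a floor of 3 cells allows up to 0.344% of SYN cells with such a UMI (exact upper limit 0.422%). This limits cells with a UMI, not cells that use a segment. Cd3-positive cells outside these gates gave 49 of 590 in ALLO and 0 of 934 in SYN. The UMIs were spread over cells: Trav14d-3-dv8 was in 60 gated T cells of ALLO with at most 9 UMIs in a cell, and 1 of those cells also held another name of its family. Trav10n was in 10 gated T cells with at most 17 UMIs, and Trav6n-6 in 19 with at most 5.

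A pair of segments farther upstream also differed between libraries. At places 23 and 25, Trav13d-1 had 27 UMIs in ALLO and 6 in SYN, and Trav15d-1-dv6d-1 had 16 and 3. The rows from place 19 to 42, of which 5 of 24 have any unique window, held 48 UMIs in ALLO and 16 in SYN, and without that pair 5 and 7. Of the 48 ALLO UMIs, 22 were in Cd3-positive cells outside the T cell gates, 8 in CD8 T cells and 7 in CD4 T cells. Of the 16 ALLO UMIs of Trav15d-1-dv6d-1, 8 were in Cd3-positive cells with a UMI of Trdc, the delta constant gene. The row just before the run, Trav13d-3 at place 42, had 2 UMIs in ALLO and 4 in SYN. Downstream, the pseudogene Trav11n at place 53 had 3 and 0 UMIs, and from place 56 both libraries were read again, with 71 and 134 UMIs for Trav13n-1. Taking places 19 to 53 as 1 stretch, chosen after the values were seen, it held 541 UMIs in ALLO (10.4% of Trav UMIs) and 18 in SYN (0.202%). The stretch lies between Trav10d, read in both libraries (19 and 44 UMIs), and Trav13n-1. Trav10d and Trav10n start 311180 bases apart, and Trav13d-1 and Trav13n-1 start 311109 bases apart.

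Outside the run, no Trav row with at least 20 UMIs was at 0 in either library, out of 57 such rows. The d segments before the stretch took smaller shares in ALLO. Over places 9 to 18 (Trav7d-2 to Trav10d), ALLO had 3.84% of its Trav UMIs and SYN 7.35%, which is 0.522-fold (0.443 to 0.612). Over places 54 to 81, the n segments after it, ALLO had 6.56% and SYN 10.2%, which is 0.644-fold (0.567 to 0.731). The 38 rows of the block with no copy letter, places 82 to 119, took 66.3% and 69.7%, and the 9 rows nearest the Traj array, places 120 to 128, took 7.70% and 5.92%, which is 1.30-fold (1.14 to 1.48). The 9.45% of the ALLO total that lies in the run lowers every other share of that library. With the run left out of both totals, places 9 to 18 were 0.576-fold (0.489 to 0.676), places 54 to 81 were 0.712-fold (0.626 to 0.807) and places 120 to 128 were 1.43-fold (1.26 to 1.64). The block with no copy letter then took 73.2% in ALLO and 69.7% in SYN. Its ratio of 0.951 (0.912 to 0.992) became 1.05 (1.007 to 1.095), so the side of 1 depended on the rows counted. All these ratio intervals take UMIs as independent, though a CD4 T cell held up to 36 Trav UMIs in ALLO and 30 in SYN. They are too narrow for cells, and a difference for this block cannot be read from them.

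**Figure D2:**
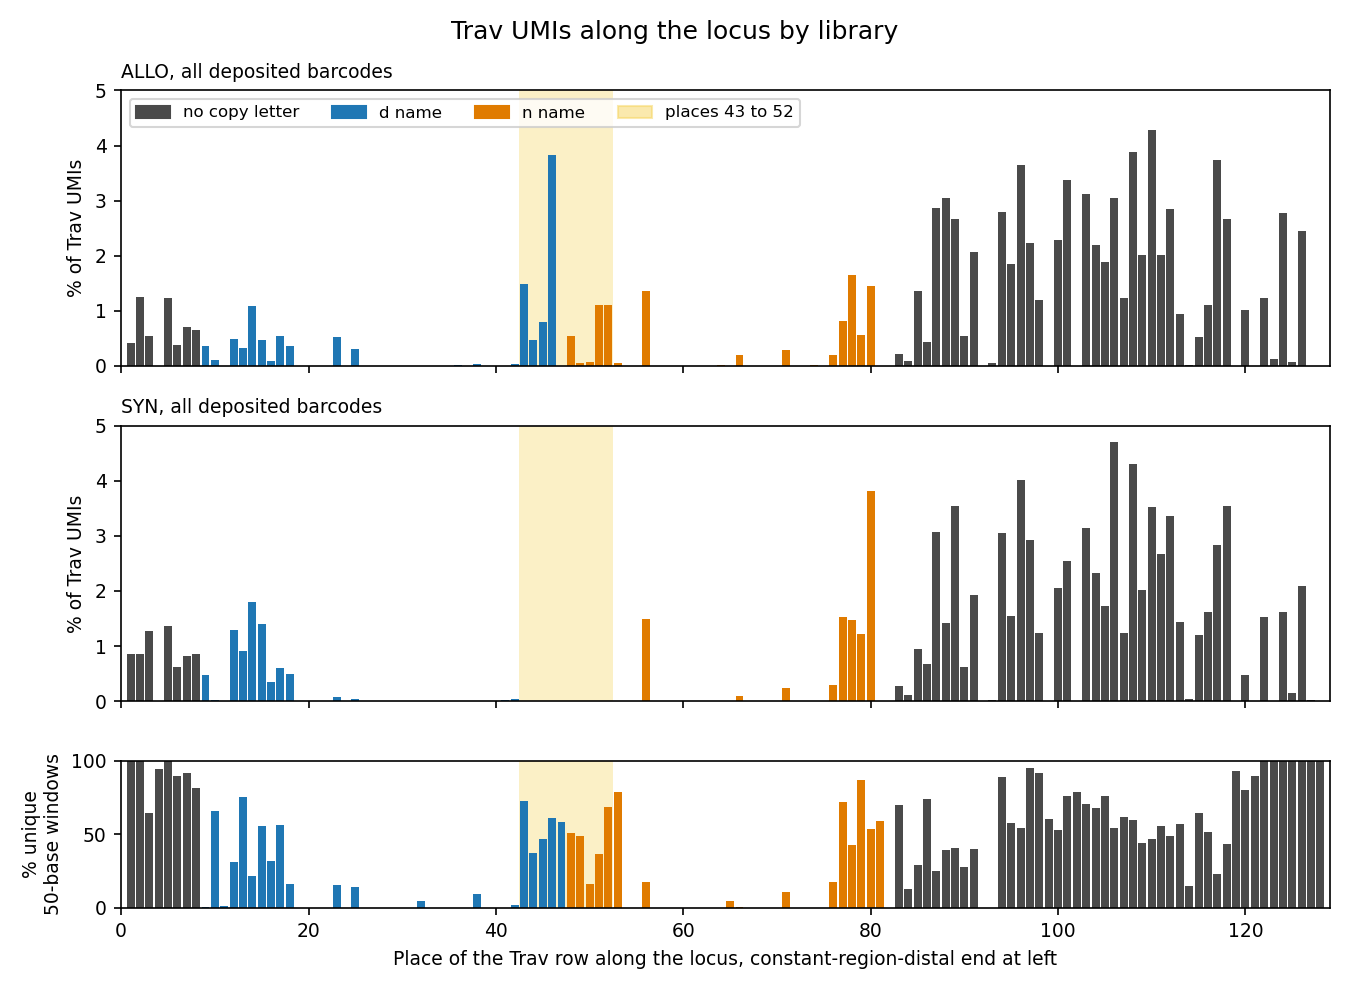
Share of all Trav UMIs (percent, all deposited barcodes) for each Trav row in order along the locus, ALLO above SYN, with the share of unique 50-base windows at the bottom. The shaded places 43 to 52 hold 9.45% of the Trav UMIs in ALLO and 0.0224% in SYN; of the other rows at 0 UMIs in both libraries, the genes have no unique window and the rest are pseudogenes.

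In gated T cells, d and n names took 25.5% (95% exact interval 23.8 to 27.2) of the UMIs of copied families in ALLO and 21.7% (20.4 to 23.1) in SYN. Without the rows at places 43 to 52, the share was 16.0% (14.6 to 17.6) in ALLO and 21.7% (20.3 to 23.1) in SYN, a change that follows from leaving out rows picked for being read in ALLO. These intervals also take UMIs as independent and are too narrow for cells. The d names alone took 12.9% in ALLO and 7.84% in SYN, and 6.28% and 7.82% without the run. Libraries, recipients and grafts cannot be told apart here, since each group is 1 library.

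The segment in use was read in each cell as the Trav segment with the most UMIs, and cells with a tie were set aside. This assigned 338 ALLO and 359 SYN CD8 T cells, 55 and 55 Foxp3 T cells, and 389 and 569 CD4 T cells. The repertoire was spread wide. In CD4 T cells, 66 segments led at least 1 cell in ALLO and 60 in SYN. The leading segment of CD8 T cells was Trav12-2 in both libraries, with 5.33% of assigned cells in ALLO and 6.41% in SYN. Over all gated T cells the 10 most frequent segments were Trav13-1, Trav12-2, Trav14-2, Trav4-4-dv10, Trav9-1, Trav3-3, Trav4-3, Trav7-5, Trav6-7-dv9 and Trav14n-3. Of these, Trav13-1 led 29 of 756 cells in ALLO and 48 of 956 in SYN, and Trav14n-3 led 12 and 39.

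The block with no copy letter held 60.1% of assigned CD8 T cells in ALLO and 68.0% in SYN, and 63.2% and 69.4% of assigned CD4 T cells. The d block held 12.1% (8.85 to 16.1) of CD8 T cells in ALLO and 4.74% (2.78 to 7.47) in SYN. In CD4 T cells it held 12.6% (9.47 to 16.3) in ALLO and 8.96% (6.75 to 11.6) in SYN. The 9 segments nearest the Traj array held 7.46% (5.05 to 10.5) of CD4 T cells in ALLO and 4.39% (2.86 to 6.42) in SYN, and 4.44% (2.50 to 7.21) and 5.57% (3.44 to 8.47) of CD8 T cells. The d block includes places 43 to 47 of the run.

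Trav14n-3 and Trav14-2 led smaller shares of CD4 T cells in ALLO than in SYN. Of 19 segments with at least 20 assigned CD4 T cells, 4 were at least 1.5-fold higher in ALLO and 5 at least 1.5-fold lower. By the share of cells with a UMI, which can be set against all genes, 14.3% of 28 Trav segments were at least 1.5-fold higher and 28.6% were at least 1.5-fold lower. Over all 9577 genes with at least 20 such cells, 8.58% were higher and 2.52% lower; among the 2383 genes with no more such cells than the most frequent Trav segment, 25.1% were higher and 8.52% lower. Trav14n-3 led 5 ALLO and 28 SYN cells, which is 1.29% and 4.92% of assigned CD4 T cells and a ratio of 0.261 (0.0788 to 0.685). In CD4 T cells without a Foxp3 UMI, Trav14n-3 had 12 UMIs in ALLO and 114 in SYN. Its copy Trav14d-3-dv8 had 65 and 0, and Trav14-3 had 49 and 98. The lower share is thus shown for the n name and not for the family. Trav14-2 led 9 and 32 cells, a ratio of 0.411 (0.173 to 0.882). Trav8-1, with 19 cells in all, led 13 in ALLO and 6 in SYN (ratio 3.17, 1.12 to 10.2). From the run, Trav14d-3-dv8 led 18 ALLO CD4 T cells and no SYN cell, and Trav10n and Trav6n-6 led 7 and 6 ALLO cells and no SYN cell.

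In CD8 T cells, 8 segments had 20 assigned cells, of which 2 were at least 1.5-fold higher in ALLO (Trav16n and Trav4-3) and 1 was lower. By the share of cells with a UMI, 13.0% of 23 Trav segments were higher and 17.4% lower, against 4.01% and 4.49% of 9275 genes, and 13.1% and 13.2% of the 2144 genes in the same range of cells. The lower one was Trav7-5, which led 3 of 338 CD8 T cells in ALLO (0.888%) and 22 of 359 in SYN (6.13%), with a ratio of 0.145 (0.0278 to 0.482). In CD4 T cells, the same segment led 12 of 389 cells in ALLO and 15 of 569 in SYN (ratio 1.17, 0.50 to 2.68). Whether its ratio differs between the classes was not tested. Trav16n led 17 ALLO and 8 SYN CD8 T cells, and its interval includes 1 (2.26, 0.923 to 6.04). Trav13n-4, under the minimum of 20 assigned cells and so not among the 8 compared, led 2 ALLO and 11 SYN CD8 T cells (0.193, 0.0208 to 0.885). Trav14d-3-dv8, Trav6n-6 and Trav16d-dv11, all of the run, led 10, 9 and 8 ALLO CD8 T cells and no SYN cell.

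**Figure D3:**
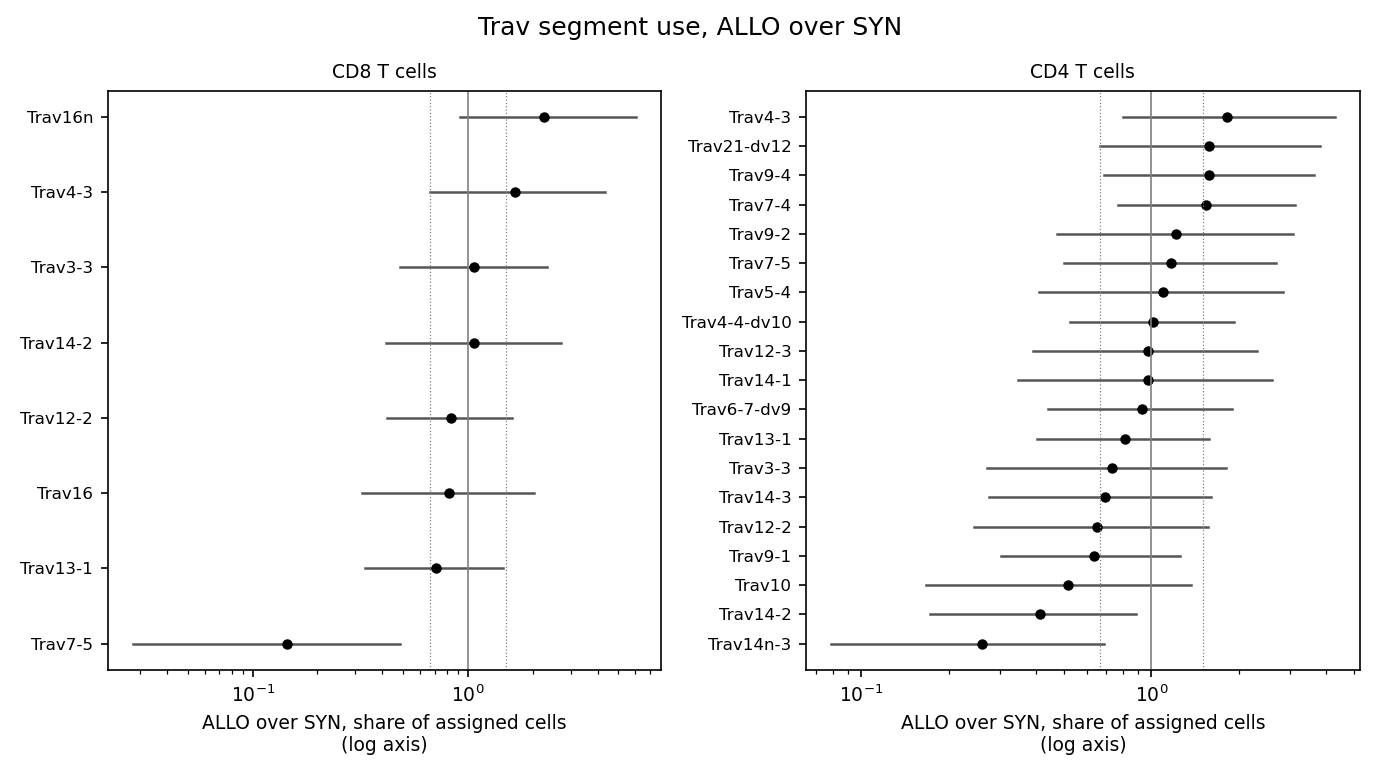
Ratio (log axis) of the share of assigned cells led by a Trav segment, ALLO over SYN, with 95% exact intervals, for segments with at least 20 assigned cells and at least 1 in each library. Most intervals include 1 (solid line; dotted lines mark 1.5-fold either way); Trav7-5 in CD8 T cells (0.145) and Trav14n-3 in CD4 T cells (0.261) are the lowest points.

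CD8 T cells used several Trav segments at other levels than CD4 T cells, in both libraries. UMIs were summed per class and library (557 and 548 CD8 T cells, 94 and 105 Foxp3 T cells, and 529 and 823 CD4 T cells without a Foxp3 UMI, in ALLO and SYN) and tested over 10044 genes with edgeR's quasi-likelihood test, with the library as a block (2 residual degrees of freedom). Of 52 Trav segments that passed the filter on low counts, 2 were higher in CD8 T cells and 8 were lower, at a Benjamini-Hochberg adjusted p under 0.05. Over all genes, 6.32% were higher and 4.9% lower. The other Trav rows and all 60 Traj rows did not pass the filter. The median log2 difference of the 52 segments was -0.39, beside -0.01 over all genes tested. Trac itself was lower in CD8 T cells (log2 -0.33, SE 0.10, edgeR adjusted p = 0.0433), as was Cd247, which codes for the CD3 zeta chain (log2 -0.64, SE 0.10, edgeR adjusted p = 9.56e-05); Cd3d, Cd3e and Cd3g did not pass (log2 0.22, -0.02 and -0.07). In these summed counts, fewer cells using a segment and fewer transcripts per cell cannot be told apart.

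Trav16 was the segment with the larger rise. It had 10.8 CPM in ALLO and 15.9 CPM in SYN CD8 T cells, against 4.25 and 6.47 CPM in CD4 T cells, with no overlap of the classes (log2 1.46, SE 0.34, edgeR adjusted p = 0.0067). It was in 17 and 18 CD8 T cells and in 5 and 14 CD4 T cells. Trav12-2 had 20.2 and 31.1 CPM in CD8 T cells, against 13.6 and 18.5 CPM in CD4 T cells (log2 0.81, SE 0.25, edgeR adjusted p = 0.0375).

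Trav7-4 had the lowest adjusted p of the segments tested. It had 3.82 CPM in ALLO and 6.88 CPM in SYN CD8 T cells, against 31.9 and 20.9 CPM in CD4 T cells (log2 -2.11, SE 0.39, edgeR adjusted p = 0.000772). It was in 5 and 9 CD8 T cells and in 22 and 22 CD4 T cells. Its copy Trav7d-4, with 99.4% identity in coding sequence, did not pass (log2 -0.14, SE 0.35, edgeR adjusted p = 0.896). With the copies of the family summed, the log2 difference was smaller, at -1.18 (edgeR adjusted p = 0.00415). The 3 segments of the Trav9 subgroup that passed, Trav9-1, Trav9-2 and Trav9-4, were all lower in CD8 T cells, with log2 differences of -1.41, -1.36 and -1.34. Trav9-1, for one, had 5.21 and 9.78 CPM in CD8 T cells, against 14.9 and 28.8 CPM in CD4 T cells (SE 0.35, edgeR adjusted p = 0.0107). Trav6-7-dv9 had 6.95 and 13.0 CPM in CD8 T cells, against 23.8 and 27.7 CPM in CD4 T cells. Trav4-4-dv10, Trav17 and Trav6d-4 were lower by -0.86, -1.36 and -2.18 on the log2 scale. Trav6d-4 rested on 1 and 3 CD8 T cells and on 5 and 13 CD4 T cells.

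All 10 segments moved the same way in each library taken alone, which their choice by a test on the same libraries favours. The calls depended on the unit and the tool. With each cell counted once per segment, which removes the weight of cells with many UMIs, 0 were higher and 3 lower (Trav7-4, Trav9-1 and Trav4-4-dv10) of 30 tested, and with DESeq2 0 were higher and 1 lower (Trav7-4).

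**Figure D4:**
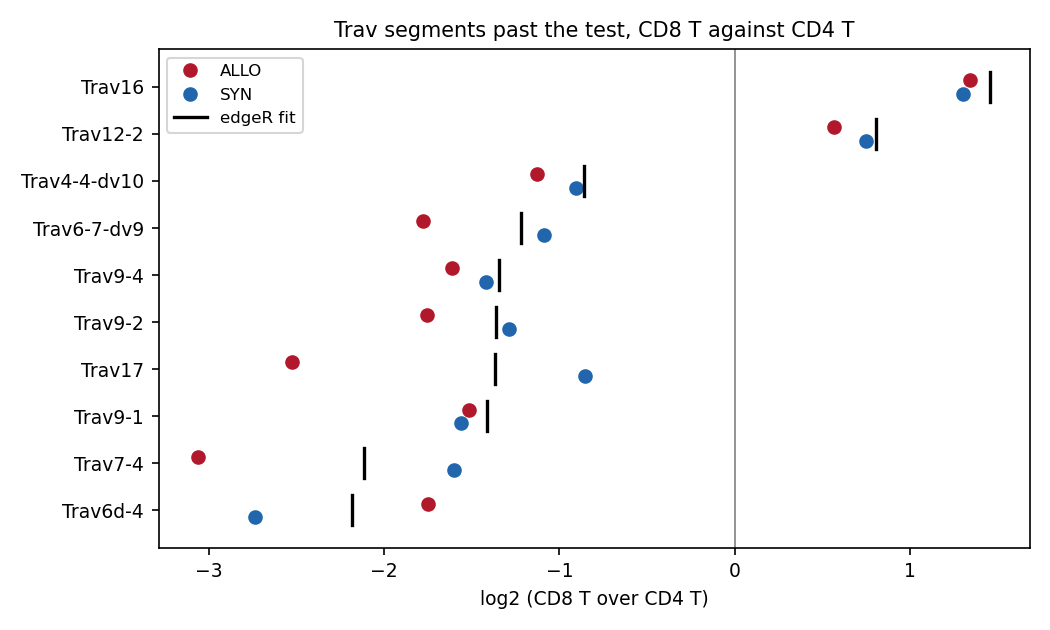
Difference (log2) between CD8 T and CD4 T cells for the 10 Trav segments past the test, as the ratio of CPM in ALLO and in SYN (points) and the edgeR fit over both (bars). Trav16 and Trav12-2 lie right of 0 in both libraries and the other 8 lie left of 0.

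In Foxp3 T cells, 2 of the same 52 segments were higher than in CD4 T cells and 5 were lower, against 4.5% and 2.93% of all genes tested. The median log2 difference of the segments was -0.70, beside -0.02 over all genes. Both rises came from ALLO. Trav12-1 had 91.5 CPM in ALLO and 0 in SYN Foxp3 T cells, against 5.10 and 8.24 CPM in CD4 T cells (log2 2.49, SE 0.73, edgeR adjusted p = 0.0406). Its 39 UMIs were in 5 cells, with 22 in 1 cell. Trav10n, of the run, had 54.0 and 0 CPM in Foxp3 T cells, against 5.53 and 0 CPM in CD4 T cells; its 23 UMIs were in 3 cells, with 17 in 1 cell (log2 3.13, SE 0.65, edgeR adjusted p = 0.0045).

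The 5 lower segments had at most 1 UMI over the Foxp3 T cells of both libraries. Trav14-3 had no UMI in Foxp3 T cells of either library, against 49 UMIs in ALLO and 98 in SYN CD4 T cells. Against a floor of 3 UMIs over both libraries, and with UMIs taken as independent, it was at least 7.39-fold lower in Foxp3 T cells (edgeR adjusted p = 0.000203). Trav10 had 0 and 0 UMIs in Foxp3 T cells, against 34 and 69 in CD4 T cells, and was at least 5.18-fold lower (edgeR adjusted p = 0.00184). Trav3-1 and Trav6d-4, also at 0, were by UMIs at least 2.81-fold and 2.61-fold lower, and Trav17 had 0 and 1 UMIs, against 33 and 40 in CD4 T cells. A cell can hold several UMIs, so these folds do not hold for cells. By a floor of 3 cells, up to 3.19% of ALLO and 2.86% of SYN Foxp3 T cells could hold a segment at 0. In CD4 T cells the shares were 0.945% and 1.22% for Trav3-1, 0.945% and 1.58% for Trav6d-4, 3.21% and 3.16% for Trav14-3, and 2.27% and 3.40% for Trav10. With the copies of a family summed, neither Trav14-3 (log2 -0.80, edgeR adjusted p = 0.0785) nor Trav10 (log2 0.23, edgeR adjusted p = 0.891) passed, and the sign of Trav10 turned round. With each cell counted once per segment, Trav14-3 and Trav10 alone passed, both lower.

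In both libraries, Trav13-4-dv7, Trav15-2-dv6-2, Trav15-1-dv6-1 and Trav21-dv12 were in larger shares of the cells with a delta constant transcript. Trav4-4-dv10, Trav6-7-dv9 and Trav16d-dv11 were not. A UMI of Trdc, the delta constant gene, was in 84 Cd3-positive cells in ALLO and 81 in SYN. In these cells, dv names took 75.2% of Trav UMIs in ALLO (69.1 to 80.7) and 75.5% in SYN (69.8 to 80.6). Both intervals take UMIs as independent, though the Trav UMIs lay in 50 ALLO and 47 SYN cells, so they are too narrow for cells. In Cd3-positive cells without Trdc, dv names took 16.8% in ALLO and 11.5% in SYN. Trav13-4-dv7 led, with 88 of 226 Trav UMIs in ALLO and 79 of 257 in SYN cells with Trdc. Trav15-2-dv6-2 had 34 and 68, and Trav15-1-dv6-1 had 11 and 18. Trav13-4-dv7 was in 21 of 84 ALLO and 14 of 81 SYN cells with Trdc, against 25 of 1688 and 28 of 2336 of those without, and Trav15-1-dv6-1 was in 7.14% and 4.94%, against 1.36% and 1.46%. Trav4-4-dv10 was in 2.38% and 0% of cells with Trdc, against 2.61% and 3.17% of those without. Trav6-7-dv9 was in 0% and 1.23%, against 2.78% and 3.13%, and Trav16d-dv11 had 0 UMIs in the ALLO cells with Trdc, against 21 in those without. Trav14d-3-dv8 had 1 UMI in the ALLO cells with Trdc and 151 in those without. Trav21-dv12 was in 3.57% (3 cells) and 7.41% (6 cells) of cells with Trdc, against 2.19% and 1.67%. Trav15d-1-dv6d-1 was in 7.14% of ALLO cells with Trdc, against 0.296%, and in 0% of the SYN ones, against 0.0856%. Of the 3 T cell gates, CD8 T cells held 8 and 6 cells with a Trdc UMI, Foxp3 T cells 2 and 0, and CD4 T cells 5 and 8.

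Cells with a Traj18 UMI had higher levels of several, not all, of the listed genes of innate-like T cells. Traj18 was in 9 Cd3-positive cells of each library, 4 of the ALLO cells and 5 of the SYN cells being CD4 T cells. Zbtb16, the transcription factor of natural killer T cells, had 160 CPM in the ALLO Traj18 cells (7 UMIs in 4 cells) and 81.8 CPM in the SYN ones (3 UMIs in 1 cell), against 6.04 and 5.58 CPM in other Cd3-positive cells. Cxcr6, a chemokine receptor of tissue-homing T cells, had 847 and 682 CPM, against 74.5 and 64.8 CPM. Il2rb, a chain of the IL-2 and IL-15 receptors, had 687 and 491 CPM, against 242 and 228 CPM. Of the fixed innate-like list, Klrb1c, Id2, Nkg7 and Tbx21 were also higher in both libraries. Klrb1c rested on 3 UMIs in 2 ALLO cells and 2 UMIs in 1 SYN cell. Tbx21 rested on 6 UMIs in 4 cells and 3 UMIs in 3 cells. Klrd1 was lower, with 68.7 CPM in ALLO and 0 in SYN Traj18 cells, against 163 and 136 CPM. Ccl5 was lower too (1442 and 1555 CPM, against 2894 and 1750 CPM). Icos was lower in ALLO (22.9 against 46.1 CPM) and higher in SYN (109 against 46.7 CPM). None of the Traj18 cells with a Trav UMI, 3 in ALLO and 5 in SYN, had a Zbtb16 UMI. With 9 cells a library these are descriptions.

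The partner of Traj18 could not be read. Trav11 had 5 UMIs in all and Trav11d none, no window of either sequence being unique. Of the Traj18 cells, 3 of 9 in ALLO and 5 of 9 in SYN had any Trav UMI, against 65.6% and 68.5% of other Cd3-positive cells. No cell held both Traj18 and Trav11 UMIs. For the invariant receptor of mucosal-associated T cells, Trav1 was in 6 ALLO and 22 SYN Cd3-positive cells, and no cell had a UMI of its partner Traj33. None of the Trav1 cells had a Zbtb16 UMI.

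A second alpha segment was found in cells of every class and in both libraries. Among cells with at least 1 Trav segment at 2 UMIs, 45 of 249 CD8 T cells in ALLO (18.1%, 13.5 to 23.4) and 40 of 268 in SYN (14.9%, 10.9 to 19.8) had a second one at 2 UMIs that was no copy of the first. In CD4 T cells the numbers were 45 of 292 in ALLO (15.4%, 11.5 to 20.1) and 78 of 459 in SYN (17.0%, 13.7 to 20.7). In Foxp3 T cells they were 3 of 37 and 7 of 42. Each library's interval holds the other's value in the CD4 T cells and in the CD8 T cells.

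A second beta segment was counted at 2 UMIs with each Trbv row taken singly, with no step for copies. Among cells with at least 1 Trbv segment at 2 UMIs, it was in 12.8% of CD8 T cells in ALLO and 12.2% in SYN. In CD4 T cells the shares were 14.2% and 13.4%. Cells with 2 Trav segments had median depths of 5356 UMIs in ALLO and 4826 in SYN, against 4678 and 4543 in those with 1. Of the cells with 2 Trav segments, 13 of 92 in ALLO and 21 of 120 in SYN also had 2 Trbv segments. Scrublet, at a score of 0.25, marked none of the cells with 2 Trav segments as doublets. It marked only 3 ALLO and 1 SYN cells in the whole CD8 T gate, and 2 and 1 in the CD4 T gate. The count of 0 therefore cannot decide whether doublets are among these cells. The part of doublets in these shares was not tested.

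Among the cells with exactly 2 segments, 203 in all, 176 different pairs were seen. The most frequent, Trav13-1 with Trav4-3, was in 4 cells. The pair came from the same Trav subgroup in 4.93% of cells and lay within 5 places of each other in 22.7%. Where the UMIs were unequal, the segment farther from the Traj array was the weaker one in 38 of 65 cells in ALLO (58.5%, 45.6 to 70.6) and in 44 of 86 in SYN (51.2%, 40.1 to 62.1). Both intervals include an even split.

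**Figure D5:**
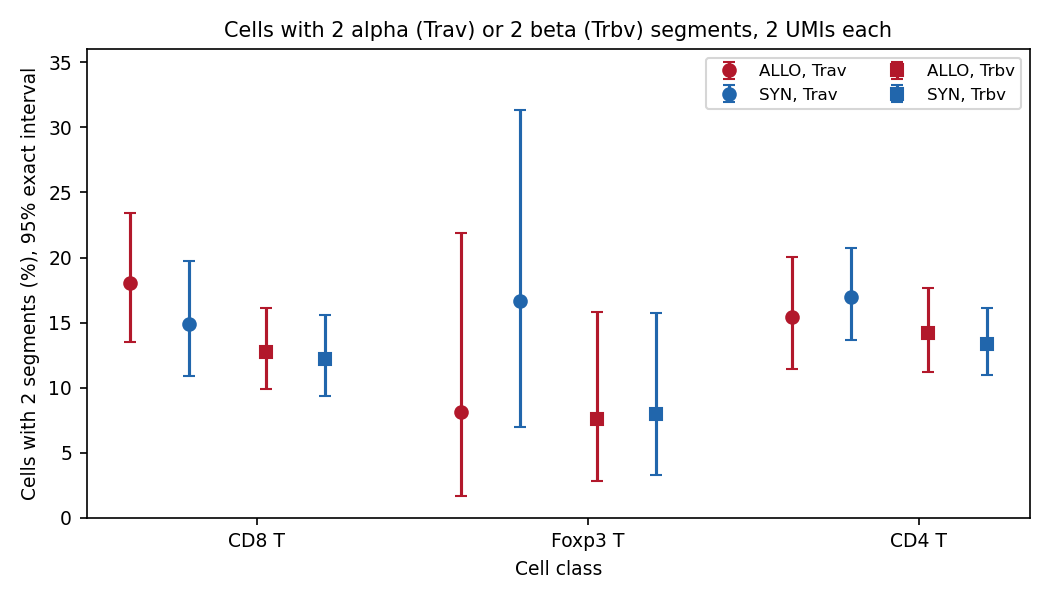
Percent of cells with 2 alpha (Trav, circles) or 2 beta (Trbv, squares) variable segments at 2 UMIs each, with 95% exact intervals, for ALLO and SYN by cell class. The Trav shares lie between 8.11% and 18.1%, and the ALLO and SYN intervals overlap in each class.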

How the data were processed

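The values used were the deposited UMI counts, whole numbers for each gene and barcode that had not been normalized. Cell Ranger 6.0.2 is named by the file headers and, with FastQC and mm10, by the processing notes of the submitters. The annotation used for counting, and whether receptor chains were assembled, are not stated in the sources, so a segment is read from gene counts alone. Splenocytes were frozen, thawed and passed over a dead cell removal column before capture, per the labels' protocols, which can change the shares of fragile cells.

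Groups came from the sample titles. Barcodes with at least 1000 UMIs were used, in python 3.11.15 with scipy 1.17.1 and pandas 2.3.3. CPM were computed from the deposited counts per class. Shares have exact (Clopper-Pearson) 95% intervals and ratios exact conditional 95% intervals. Intervals on UMIs take UMIs as independent, which those of the same cell are not. A count of 0 is set against a floor of 3 counts. UMIs summed per class and library were tested with edgeR 4.0.16 (TMM, filterByExpr, quasi-likelihood, Benjamini-Hochberg), with DESeq2 1.42.0 as an alternative. Counts were simulated for the CD8 T against CD4 T comparison over 10044 genes, with the same dispersion for all. The fit recovered 64 of 100 genes changed 2-fold and 94 of 100 changed 4-fold, with 5 false calls. Many UMIs in few cells, as on Trav rows, were not simulated, so the recovery of Trav segments is not known. P-values measure class differences against how far these varied between 2 libraries, with the estimate of spread shared over genes. The difference in level between the libraries is taken out by the block. Unique windows and sequences came from GENCODE M21. Scrublet's automatic threshold marked 0 and 2 barcodes, so a score of 0.25, chosen after the scores were seen, was used for an alternative.

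Named segments were the 10 with the most assigned cells, those past the edgeR tests, those with the ALLO over SYN interval farthest from 1, the invariant-receptor segments, the copied families and Traj rows with the most UMIs, and fixed lists of constant, CD3, recombination and innate-like genes. The rows at places 43 to 52 were singled out after their values were seen. The members and lists were chosen with earlier results of these data known.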

Additional observations from a re-analysis of the deposited data

How the results depend on the processing

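For CD8 T against CD4 T cells, the numbers of Trav segments higher and lower (2 and 8) became 4 and 12 with no filter on low counts, 0 and 3 with each cell counted once per segment, and 0 and 1 with DESeq2. For Foxp3 T against CD4 T cells (2 and 5), they became 2 and 8 with no filter, 0 and 2 with each cell counted once, 0 and 2 with DESeq2, 1 and 4 at 2000 UMIs per barcode, and 1 and 4 with copies summed. Leaving out a library gives no test. Of the segments called, those with the same direction in the library that was left were 2 and 2 higher and 8 and 8 lower for CD8 T cells. For Foxp3 T cells they were 0 to 2 higher (0 without ALLO), and 5 and 5 lower. The segments were called on both libraries, which favours the same direction in each. DESeq2 size factors, the stricter gate (3 and 10 for CD8 T cells) and the cell filter kept the counts within 1.5-fold. Over the named segments, 100 recomputed values kept their direction and call, 24 lost the call and 1 turned round (Trav10 in Foxp3 T cells, log2 0.23 with copies summed).

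For ALLO over SYN in CD4 T cells (4 higher, 5 lower), the lower count became 3 at 2000 UMIs per barcode and 3 with copies summed, and both became 1 and 2 with cells thinned to 1000 UMIs. For CD8 T cells (2 higher, 1 lower), they became 1 and 0 with 2 UMIs for the leading segment, 5 and 4 with UMIs in place of cells, and 0 and 0 after thinning; the lower count became 2 with the stricter gate and 2 with copies summed. Thinning left 5 segments to compare in CD4 T cells and 2 in CD8 T cells.

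The share of CD4 T cells with 2 Trav segments became 34.5% in ALLO and 40.2% in SYN at 1 UMI per segment, 7.80% and 9.35% at 3 UMIs, and 11.4% in ALLO after thinning. In CD8 T cells the share became 36.2% and 35.2% at 1 UMI, and 11.3% and 8.11% at 3 UMIs. After thinning, again at 1 UMI per segment, it was 10.98% in ALLO. The share of d and n names became 29.2% in ALLO by assigned cells, 18.7% in SYN in families with all 3 names, and 16.0% in ALLO without the rows at places 43 to 52. In that last setting, the fall follows from the choice of rows. The cause of the other changes was not tested.

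No paired analysis was possible because the groups share 1 replicate number and hold 1 library each. Few UMIs on the Traj rows and few Foxp3 T cells limit what can be said of them, and a count of 0 for a d or n name with no unique window does not show that a segment is unused.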
